A study of Mus musculus with 2 samples.

Results

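Matricellular and provisional matrix proteins were examined through 10 genes, Postn, Aspn, Tnc, Thbs1, Thbs2, Fn1, Fbn1, Fbln2, Sparc and Lox, chosen by symbol from the 32285 genes of the count files. They were measured by single nuclei RNAseq (snRNAseq) in 2 libraries, 1 per condition, each made from nuclei of 3 or 4 pooled C57BL6 mice. The methods describe groups of mixed sex for the study as a whole and do not give the sexes of each pool. The day 1 post-fracture library came from activated periosteum scraped off together with the hematoma 1 day after an open, non-stabilized tibial fracture. The other, by the same described extraction, came from activated periosteum with the hematoma and callus 5 days after musculoskeletal traumatic injury (MTI). In this model the fracture is combined with compression of the surrounding muscles. Both labels name hematoma/callus only. With 1 library per condition there was no replicate and no test, so the intervals given are 95% intervals that cover counting error within a library only. Because day and injury differed together between the libraries, levels were not compared across them.

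After a fracture, the blood clot and the first granulation tissue hold a provisional matrix of plasma proteins and cell-made fibronectin, which cells crawl on and later replace with collagen, cartilage and bone. Matricellular proteins are secreted into that matrix without being its main building blocks, and they act on cell attachment, growth factor activity and fibre assembly. In bone repair, the periosteum is a main source of the skeletal stem/progenitor cells (SSPCs) that become injury-induced fibrogenic cells (IIFCs), and periostin takes its name from this tissue.

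By role, 5 of the genes encode matricellular proteins. Postn encodes periostin (chr3:54361109-54391037), Tnc tenascin C (chr4:63959785-64047015), Thbs1 thrombospondin 1 (chr2:118111876-118127133), Thbs2 thrombospondin 2 (chr17:14665500-14694235) and Sparc osteonectin (chr11:55394500-55423183). Fibrils and their scaffold are represented by Fn1, fibronectin (chr1:71585520-71653200), Fbn1, the microfibril protein fibrillin 1 (chr2:125300594-125507993), and Fbln2, fibulin 2 (chr6:91212455-91272540). Aspn encodes asporin, a small leucine-rich protein that binds collagen (chr13:49544443-49567565), and Lox the lysyl oxidase that crosslinks collagen and elastin. All are protein-coding genes, with positions, given for all but Lox, from the GENCODE annotation of mouse build GRCm38.

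Postn, Tnc and Fbn1 had closely similar patterns across the MTI clusters, as described further on, so the 250 bases before a RefSeq start of each are shown, 5′ to 3′ on the strand of the gene (GRCm38.p6). They lie at chr3:54360857-54361106 (plus strand), chr4:64046937-64047186 (minus strand, the downstream of a pair of windows of this gene) and chr2:125506439-125506688 (minus strand). Capitals mark the letters TATAAA or TATATAA on either strand, a pair of strings that can overlap.
Postn promoter: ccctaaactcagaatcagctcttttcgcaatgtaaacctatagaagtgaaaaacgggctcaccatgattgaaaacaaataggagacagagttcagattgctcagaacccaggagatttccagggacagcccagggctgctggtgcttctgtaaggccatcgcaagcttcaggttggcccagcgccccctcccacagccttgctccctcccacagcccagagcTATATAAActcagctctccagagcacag
Tnc promoter: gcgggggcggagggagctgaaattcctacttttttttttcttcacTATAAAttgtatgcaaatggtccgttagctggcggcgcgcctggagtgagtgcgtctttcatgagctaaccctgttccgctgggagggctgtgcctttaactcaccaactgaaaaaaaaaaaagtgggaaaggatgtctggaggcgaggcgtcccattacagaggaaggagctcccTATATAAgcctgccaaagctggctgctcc
Fbn1 promoter: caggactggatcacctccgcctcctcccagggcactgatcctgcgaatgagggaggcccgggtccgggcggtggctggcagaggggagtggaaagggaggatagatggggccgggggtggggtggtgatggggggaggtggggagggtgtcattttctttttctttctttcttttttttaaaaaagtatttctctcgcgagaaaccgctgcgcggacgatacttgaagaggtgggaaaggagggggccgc
Of the windows shown, that of Postn held TATATAA at bases -28 to -22 before the start and that of Tnc at -29 to -23. That of Fbn1 held neither string. The other window of Postn, at chr3:54359017-54359266, held neither string. The other window of Tnc, at chr4:64047016-64047265, had 1 GENCODE start within 50 bases and held TATAAA at -126 to -121 but not TATATAA. The TATATAA of both genes thus depended on the window chosen. TATATAA, a string picked once these letters had been seen, was in 3.04% of the 32851 windows of this length, and TATAAA in 12.4%. Windows were found for 7 of the 10 genes, of which 4 held TATAAA (Postn, Aspn, Tnc and Thbs2) and 2 held TATATAA (Postn and Tnc). These counts are per gene, over any of its windows, so the shares per window are no direct background. From either strand, TATAAA began at -26 in Postn, at -207 and -178 in Aspn and at -126 in Thbs2. In Tnc it began at -126 or -205, by window. The AP-1 letters TGANTCA, in 6.75% of all windows, and the TEAD letters GGAATG, in 12.6%, were in 0 of the 7. Annotated GENCODE starts within 50 bases numbered 4 for the Postn window and 0 for the Tnc and Fbn1 windows shown, and the GC content was 52%, 51.2% and 59.2%, with a median of 52.4% over all windows.

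The MTI library held 5899407 unique molecular identifiers (UMIs) in 1446 barcodes, and 1127 nuclei with a median of 2364 UMIs passed the filters of the methods. The day 1 library held 9389014 UMIs in 48987 barcodes, of which 43464 had fewer than 200 detected genes, and its 2405 filtered nuclei had a median of 409 UMIs. The libraries shared 33 cell barcodes, 15 of them filtered nuclei in both, and the counts of genes given below were the same without them. Levels are UMIs of a gene per 1000000 UMIs (CPM), from the summed UMIs of each population, and populations come from clusters built without the 10 genes and named from marker genes. After MTI, 179 nuclei were skeletal lineage-like, with all 21 skeletal lineage markers above the other nuclei, 228 were macrophage-like, with all 10 macrophage markers above the others, and 163 were immune-like without a subset name. The others were neutrophil-like (98), endothelial-like (35), erythroid-like (33), osteoclast-like (29), myogenic (124) or without a name (238). The immune-like nuclei without a subset name included a cluster of 44 led by Ptgr1, Prdx1 and Hmox1, which were listed as early macrophage markers. That list was not used to name immune subsets, so the macrophage-like levels leave these nuclei out. The skeletal lineage markers summed to 19610 CPM in skeletal lineage-like nuclei, 373 CPM in macrophage-like nuclei and 808 CPM in immune-like nuclei without a subset name. In such bulk sums, fewer expressing cells and less RNA per cell cannot be told apart.

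At day 5 post-MTI, skeletal lineage-like nuclei carried the matrix genes at high levels. The 10 genes together reached 8157 CPM (7984 to 8334) there, against 858 CPM (802 to 916) in macrophage-like nuclei, 1609 CPM in endothelial-like nuclei and 349 CPM in myogenic nuclei. All 10 were at least 2-fold higher in skeletal lineage-like than in macrophage-like nuclei, while 26.3% of the 11778 genes with enough UMIs were higher by that rule and 19.9% at least 2-fold lower. The median ratio was 42.1 for the 10 genes and 1.04 for all genes. Aspn, Tnc, Thbs2, Fbln2 and Lox had fewer than 10 UMIs in macrophage-like nuclei. They had enough UMIs only with those of the skeletal lineage-like nuclei, so the count and the median are descriptions only.

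Among the matricellular genes, Postn reached 1799 CPM (1718 to 1883) on the skeletal side and 21.5 CPM in macrophage-like nuclei, 83.8-fold apart (55.2 to 134). Tnc, which is switched on in wounds and tendon, stood at 867 CPM (811 to 926) and 8.78 CPM, a ratio of 98.7 (51.8 to 217). Skeletal lineage-like nuclei held 94.0% of all Postn UMIs and 90.2% of all Tnc UMIs, although they held 23.7% of the UMIs of all genes. Thbs2 was lower, at 275 CPM (244 to 309) and 8.78 CPM, with a ratio of 31.3 (16.3 to 69.2) and 91.6% of its UMIs in skeletal lineage-like nuclei. Sparc, which binds collagen and calcium, stood at 670 CPM (621 to 722) and 21.5 CPM, a ratio of 31.2 (20.4 to 50.1). Its share in skeletal lineage-like nuclei was 76.9%, below those of the 3 genes before it, and a further 10.5% lay in endothelial-like nuclei.

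The fibrillar scaffold genes split. Fbn1 had a ratio of 110 (59.5 to 230), which overlapped those of Tnc and Postn, from 1071 CPM (1009 to 1136) in skeletal against 9.76 CPM in macrophage-like nuclei. Fbln2, whose protein joins fibronectin and fibrillin fibres, stood at 309 CPM (276 to 345) and 5.85 CPM, a ratio of 52.8 (23.99 to 145). Fn1 was the most abundant of the 10 genes in skeletal lineage-like nuclei, at 2184 CPM (2095 to 2276), but it also stood at 694 CPM (644 to 747) in macrophage-like nuclei, so its ratio of 3.15 (2.89 to 3.43) was the lowest. Thbs1 came next, with 363 CPM (327 to 401) against 74.1 CPM (58.4 to 92.8), a ratio of 4.89 (3.81 to 6.34). When the clustering resolution was doubled, the Thbs1 ratio was 1.45 (0.926 to 2.22) and 9 of the 10 genes met the 2-fold rule. Over all alternatives, the Fn1 ratio lay between 2.41 and 8.64 and the Thbs1 ratio between 1.45 and 14.1. The high ratios, which rest on few macrophage UMIs, ranged as widely, from 20.8 to 165 for Postn, 17.5 to 190 for Tnc, 47.7 to 192 for Fbn1, 26.8 to 87.6 for Fbln2, 20.4 to 89.0 for Thbs2 and 20.0 to 102 for Sparc.

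Of the collagen-binding and crosslinking genes, Aspn was nearly confined to the skeletal side, with 512 CPM (469 to 558) in skeletal lineage-like nuclei, 8.78 CPM in macrophage-like nuclei and 95.5% of its UMIs in the former. Lox was the least abundant of the 10, with 107 CPM (87.9 to 129) and 4.88 CPM, a ratio of 21.9 (9.11 to 68.8), from 110 and 5 UMIs. Over the alternatives the Aspn ratio lay between 10.9 and 107 and the Lox ratio between 13.8 and 32.0. Skeletal lineage-like nuclei held 75.9% of the Lox UMIs and myogenic nuclei 10.3%.

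**Figure D1:**
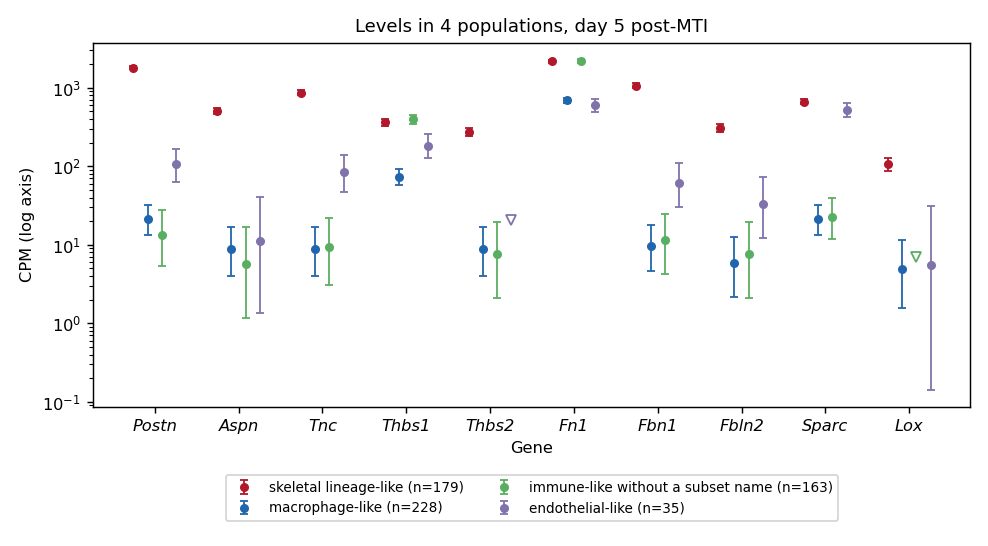
CPM of each gene on a log axis in 4 populations of the day 5 post-MTI library, with 95% counting intervals; an open triangle marks the upper limit where a population had 0 UMIs. Postn, Tnc, Thbs2, Fbn1, Fbln2, Aspn and Lox lie far higher in skeletal lineage-like nuclei than in the others, whereas Fn1 reached 2184 CPM there and 2186 CPM in immune-like nuclei without a subset name.

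**Figure D2:**
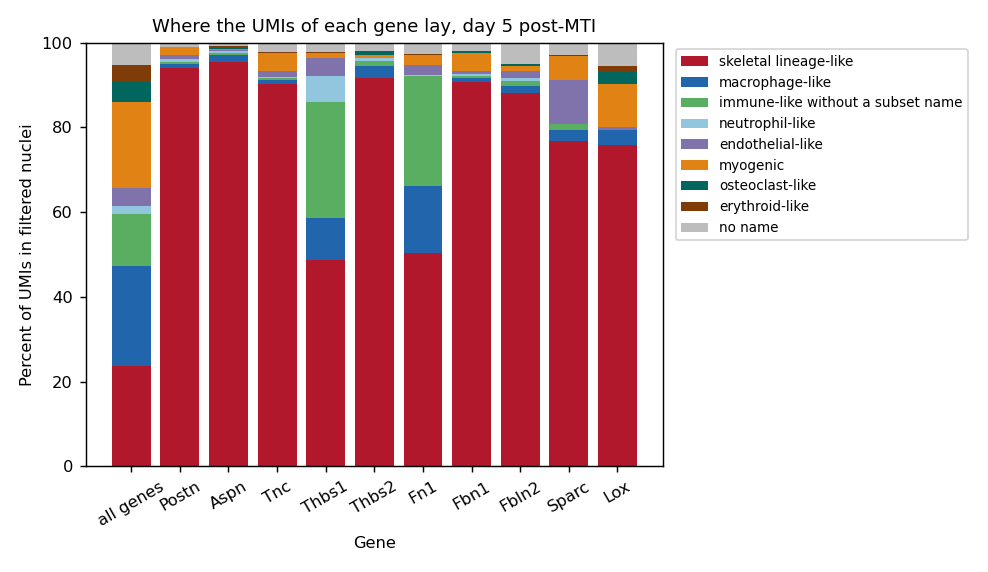
Stacked bars of the percent of each gene's UMIs in filtered nuclei of the day 5 post-MTI library that lay in each population, with all genes together on the left. Skeletal lineage-like nuclei held 95.5% of the Aspn UMIs but 50.3% of the Fn1 UMIs and 48.8% of the Thbs1 UMIs, against 23.7% for all genes.

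Ordered by level across populations, Postn, Aspn, Tnc, Thbs2, Fbn1, Fbln2, Sparc and Lox were highest in skeletal lineage-like nuclei. Fn1 was level between these and immune-like nuclei without a subset name (ratio 1.00, 0.931 to 1.07). Thbs1 had its highest level in neutrophil-like nuclei, within counting error of the next population. No share of all genes that are highest in skeletal lineage-like nuclei is given, so this order is a description only. For Postn the next population was neutrophil-like nuclei, at 186 CPM (106 to 301) from 16 UMIs. Counting error did not separate these from endothelial-like nuclei (ratio 1.75, 0.844 to 3.60). Neutrophil-like nuclei were shallow, with a median of 787 UMIs, and their skeletal lineage markers summed to 1693 CPM with 17 of the 21 detected and Pdgfra, Twist1, Sp7 and Dpp4 at 0. Their part in the Postn level was not tested. For Sparc the next population was endothelial-like nuclei, at 523 CPM (423 to 640), with a ratio of 1.28 (1.03 to 1.61) between the populations. In endothelial-like nuclei 7 of the 21 skeletal lineage markers were at 0, among them Pdgfra and Pdgfrb, and the others were detected. Thbs2 was also at 0 there. Tnc (83.5 CPM), Postn (106 CPM) and Fbn1 (61.2 CPM) were far below their skeletal levels. They were above the macrophage-like levels of 8.78, 21.5 and 9.76 CPM. The part of skeletal RNA in the endothelial-like Sparc level was not tested.

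Fn1 was shared between skeletal and immune nuclei. It stood at 2186 CPM (2061 to 2316) in immune-like nuclei without a subset name and 2184 CPM in skeletal lineage-like nuclei, a ratio of 1.00 (0.931 to 1.07), then at 694 CPM in macrophage-like, 601 CPM (493 to 726) in endothelial-like and 510 CPM in unnamed nuclei, and at 128 CPM in neutrophil-like nuclei. Of all Fn1 UMIs, 50.3% lay in skeletal lineage-like nuclei, 25.8% in immune-like nuclei without a subset name and 15.9% in macrophage-like nuclei. Within the immune nuclei the level ranged widely. A cluster of 71 nuclei led by Hspa1a, Olr1, Osm, Ankrd37 and Ccr2 held 835 Fn1 UMIs and reached 4095 CPM (3822 to 4382), above the level in either skeletal cluster. Those 71 nuclei had few UMIs of Postn (2), Tnc (2) and Fbn1 (3). Of the 21 skeletal lineage markers, Pdgfra, Twist1, Col8a1 and 5 others were at 0 there, and the rest were detected. The part of skeletal RNA in the Fn1 level of these nuclei was not tested. The next were a macrophage-like cluster led by Tnf and Vsig4, at 1769.8 CPM (1628 to 1921), and a cluster led by Ptgr1, Prdx1 and Hmox1, at 1432 CPM (1277 to 1601). The latter, led by early macrophage markers, was not among the macrophage-like nuclei, so the macrophage-like Fn1 level leaves it out.

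The other macrophage-like clusters had far less Fn1. A cluster led by Mmp12, Mmp13 and Gpnmb stood at 406 CPM, one led by Ccl8, Cd163 and Mrc1 at 139 CPM, one led by Dnase1l3 and Gpr162 at 99.9 CPM, and an immune-like cluster led by Klri1 and Klrd1 at 65.3 CPM. Among the 4 macrophage-like clusters, Fn1 thus varied from 99.9 to 1769.8 CPM. Tnc lay between 4.96 and 12.4 CPM, from 9 UMIs over the 4 clusters together, too few to compare the clusters.

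Thbs1, whose protein is released by platelets and can activate latent TGF-beta, followed another order. It stood at 533 CPM (391 to 711) in neutrophil-like nuclei from 46 UMIs, at 397 CPM (345 to 455) in immune-like nuclei without a subset name and at 363 CPM in skeletal lineage-like nuclei. Neighbours in this order had ratios of 1.34 (0.954 to 1.86) and 1.10 (0.920 to 1.30), so neighbours among these 3 were not separated by counting error, while endothelial-like nuclei at 184 CPM (126 to 258) and macrophage-like nuclei at 74.1 CPM were lower. By cluster, Thbs1 was highest in the Olr1 and Osm cluster, at 785 CPM (668 to 916) from 160 UMIs. Clusters led by Ptgr1 and by Mmp12 stood at 228 and 220.3 CPM, the Tnf and Vsig4 cluster, which was high in Fn1, at 58.8 CPM, and the Klri1 cluster had 0 Thbs1 UMIs, with an allowance of 3 counts at 28.0 CPM.

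**Figure D3:**
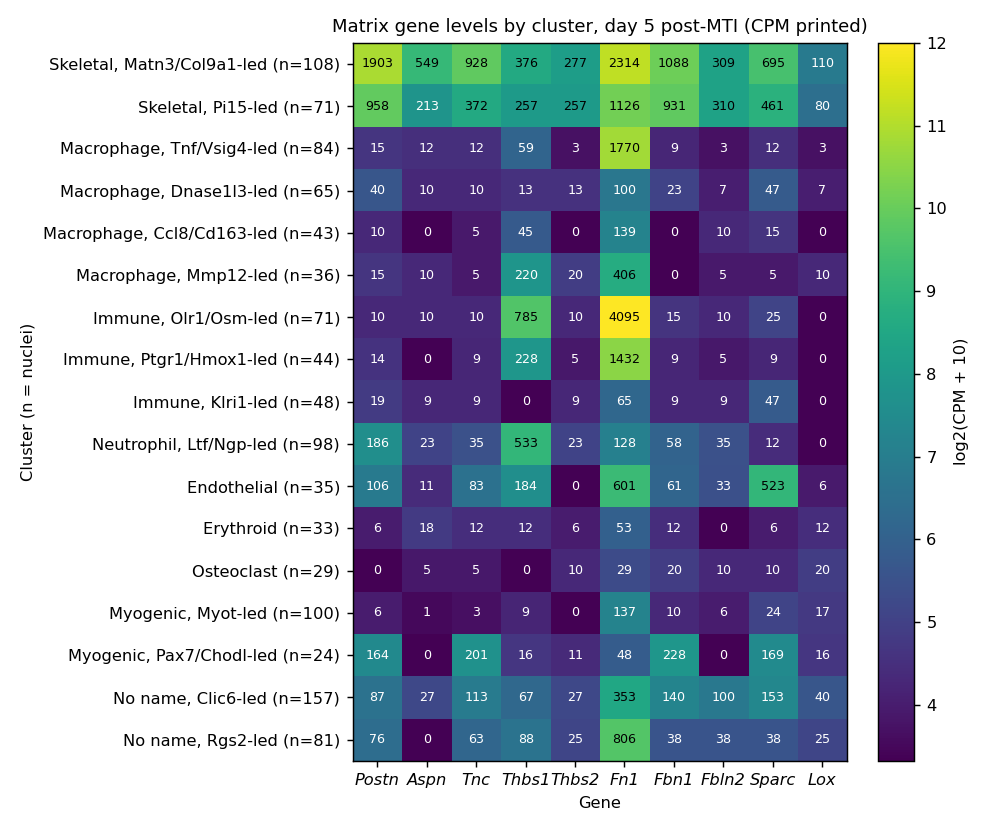
Heat map of log2(CPM + 10) for the 10 genes in the 17 clusters of the day 5 post-MTI library, with the CPM printed in each cell and the number of nuclei beside each cluster. The top 2 rows are the skeletal clusters, where Lox was the lowest gene, at 110 and 79.8 CPM. Outside them Fn1 peaks at 4095 CPM and Thbs1 at 785 CPM in the Olr1 and Osm cluster, above their levels in both skeletal rows.

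Some matrix genes were also seen in a myogenic cluster of 24 nuclei led by Chodl and Dcx and holding Pax7, the satellite cell gene. There Fbn1 stood at 228 CPM (165 to 307), Tnc at 201 CPM (142 to 276), Sparc at 169 CPM (116 to 239) and Postn at 164 CPM (112 to 233), while Fn1 was at 47.6 CPM and Fbln2 and Aspn had 0 UMIs. Skeletal lineage markers summed to 2975 CPM in these nuclei with 7 of 21 at 0, and their part was not tested. The other myogenic cluster, of 100 nuclei, had Fn1 at 137 CPM and the other 9 genes at 24.3 CPM or lower.

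Part of each gene's UMIs lay in few skeletal lineage-like nuclei. The 18 nuclei of 179 with the most UMIs of a gene held 73.9% of the Tnc UMIs, 62.8% of the Postn UMIs, 60.9% of the Fn1 UMIs, 48.2% of the Sparc UMIs and 45.5% of the Fbn1 UMIs. The 18 nuclei with the most UMIs of all genes together held 27.6% of those. For each gene the 18 nuclei were picked by its own UMIs, which raises its share. A single nucleus held up to 248 Fn1 UMIs, 204 Postn UMIs or 159 Tnc UMIs.

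Shares of positive nuclei were compared after each nucleus was thinned to 500 UMIs. In thinned skeletal lineage-like nuclei, Fn1 was detected in 43.0% (35.7 to 50.6), Postn in 35.2% (28.2 to 42.7) and Fbn1 in 31.3% (24.6 to 38.6). Sparc (19.6%), Tnc (19.0%), Thbs1 (16.2%), Aspn (15.6%), Fbln2 (13.4%), Thbs2 (10.6%) and Lox (5.59%) followed. Without thinning the shares were 81.6% for Fn1, 68.2% for Postn, 70.4% for Fbn1 and 28.5% for Lox, at a median of 3737 UMIs. Thinned macrophage-like nuclei, with a median of 4024 UMIs before thinning, were positive for Fn1 in 18.4% and for Thbs1 in 2.63%, and for each of the other 8 genes in 0.877% or fewer. Thinned skeletal lineage-like nuclei carried 2.09 of the 10 genes on average and 33.5% carried at least 3, whereas macrophage-like nuclei carried 0.250 on average and 0% carried 3. In the Olr1 and Osm cluster 66.2% of thinned nuclei (54.0 to 77.0) were positive for Fn1.

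Skeletal lineage-like nuclei fell into a pair of clusters. One of 108 nuclei, with a median of 7827 UMIs, was led by Lipi, Matn3, Ptpru, C1qtnf2 and Col9a1, and all 5 osteoblast and all 6 chondrocyte markers were above the other nuclei. The other, of 71 nuclei with a median of 1379 UMIs, was led by Pi15, Adamts15, Ntf3, Epha7 and Cpxm1, with Sp7, Ibsp, Ifitm5 and Bglap at 0, the first and second marking osteoblast commitment and bone matrix. In the Matn3 and Col9a1 cluster 3 of the 10 genes were at least 2-fold higher, and none was 2-fold lower. By that rule, 30.6% of 9625 genes differed in either direction, 21.2% being higher and 9.34% lower. The median ratio of the 10 genes was 1.48, against 1.15 for all genes tested.

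The 3 genes were Aspn, at 549 against 213 CPM (ratio 2.58, 1.71 to 4.07), Tnc, at 928 against 372 CPM (2.49, 1.83 to 3.48), and Fn1, at 2314 against 1126 CPM (2.06, 1.72 to 2.48). Postn was just under the rule, at 1903 against 958 CPM (1.99, 1.64 to 2.44), and Sparc lower still, at 695 against 461 CPM (1.51, 1.14 to 2.04). Fbln2, with 309 against 310.4 CPM, had a ratio of 0.996 (0.699 to 1.46), and the intervals of Thbs2 (1.08, 0.733 to 1.64), Fbn1 (1.17, 0.955 to 1.44), Lox (1.38, 0.700 to 3.11) and Thbs1 (1.46, 0.999 to 2.21) also included 1. The count of 3 of 10 was close to the shares over all genes, so the members did not stand apart from them in this comparison.

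The clusters differed in depth, and the part of depth in these ratios was not tested. Over all draws of 500 UMIs per nucleus, the expected share of positive nuclei was 48.2% against 36.3% for Fn1, 22.8% against 14.9% for Tnc and 19.6% against 10.2% for Aspn. When the 5% of nuclei with most UMIs were left out, the genes past 2-fold were Aspn and Lox, and with the resolution doubled 6 genes passed. The pair of clusters was picked anew at each setting. No share over all genes is given at these settings, so these counts are descriptions only and have no background in the 30.6% above.

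**Figure D4:**
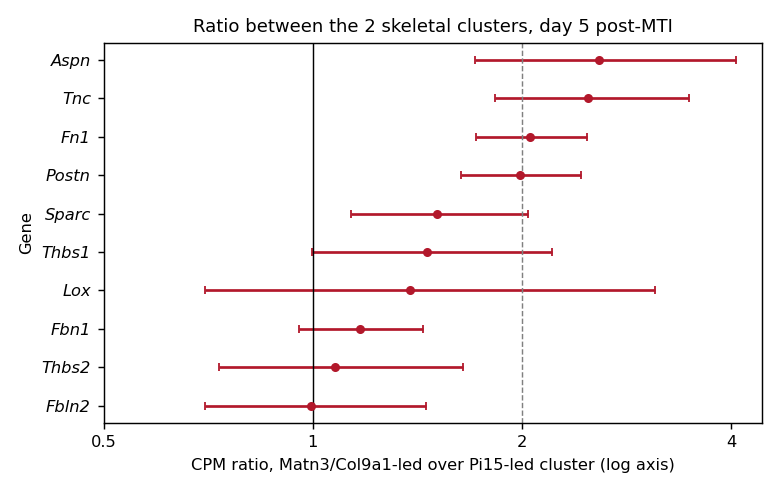
CPM ratio of each gene between the Matn3 and Col9a1 cluster and the Pi15 cluster of skeletal lineage-like nuclei at day 5 post-MTI on a log axis, with 95% counting intervals, a solid line at 1 and a dashed line at 2. Aspn, Tnc and Fn1 lie beyond the dashed line and Fbln2 lies at 0.996.

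Because intronic reads were counted, levels of different genes were compared per length of the gene. Per kb of gene span, Postn had the highest level in skeletal lineage-like nuclei, at 60.1 CPM per kb, followed by Fn1 (32.3), Thbs1 (23.8), Sparc (23.3) and Aspn (22.2). Tnc (9.94), Thbs2 (9.57), Lox (7.75), Fbn1 (5.16) and Fbln2 (5.14) were lower, so Fbn1, which has the longest span, moved from the third place by CPM to the ninth. Per kb of exonic sequence the order was Aspn (218 CPM per kb), Postn (207), Fn1 (187), Sparc (177), Tnc (112), Fbn1 (88.3), Thbs1 (59.7), Fbln2 (48.5), Thbs2 (39.3) and Lox (22.4). Postn and Fn1 were among the top 3 on both scales, and the places of the other genes depended on the scale.

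Patterns were compared across the 17 MTI clusters as Pearson correlations of log2(CPM + 10), over 6867 genes. All clusters share 1 library and differ in depth, so these values only describe likeness. Postn was most like Col3a1 (0.973), Bgn (0.946) and Tnc (0.945), and Fbn1 most like Col5a1 (0.976), Gpc6 (0.969) and Tnc (0.963). Tnc itself was most like Gpc6 (0.972), Col5a2 (0.971) and Fbn1 (0.963). Of these partners, Col3a1, Col5a1 and Col5a2 encode fibrillar collagens and were also among the skeletal lineage markers, Gpc6 encodes a glypican and Bgn the proteoglycan biglycan. Aspn was most like Ror2 (0.959), Adamtsl3 (0.947) and Col16a1 (0.944), and Thbs2 most like Ebf2 (0.939), Ccbe1 (0.936) and Ccdc80 (0.923). Fbln2 came closest to Slit3 (0.952), Magi2 (0.951) and Brinp3 (0.949), Sparc to Serpinh1 (0.956), Cachd1 (0.953) and Tmtc2 (0.948), and Lox to Boc (0.920), Mrc2 (0.909) and Mark1 (0.906). Serpinh1 encodes the collagen chaperone HSP47.

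Fn1 and Thbs1 stood apart from the others. Fn1 was most like Slc39a14 (0.832), Thbs1 (0.782) and Plcb1 (0.769), and Thbs1 most like Anxa2 (0.839), Ier3 (0.807) and Egln3 (0.796). The correlation of Fn1 with Fbn1 was 0.247, against 0.928 for Postn with Fbn1, and the lowest among all pairs of the 10 genes was 0.0644, for Thbs1 with Lox.

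Other genes of the same families were taken from a list of 56. Of these, 45 were at least 2-fold higher and 2 at least 2-fold lower in skeletal lineage-like than in macrophage-like nuclei, and 9 had fewer than 10 UMIs over both populations. The 26.3% and 19.9% of all genes given above are the background. Most of the 45 reached 10 UMIs through the skeletal lineage-like nuclei alone, so the count describes the list and supports nothing further. The counts by family are of genes tested, leaving out those with fewer UMIs. Higher were all 3 other thrombospondins, all 5 CCN family genes and the 2 tenascins tested of 3 listed. So were 9 small leucine-rich proteoglycans tested of 10 listed, 13 elastic fibre genes of 14 and 3 lysyl oxidase family genes of 4. Of the relatives of periostin and SPARC tested, 6 of 7 were higher, and of the other provisional matrix genes tested 4 of 5.

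The 6 related genes with the highest ratios had 0 UMIs in macrophage-like nuclei. They were Comp, thrombospondin 5 of cartilage and tendon, at 188 CPM in skeletal lineage-like nuclei and at least 64.1-fold higher than the floor of 3 UMIs, Loxl1 (119 CPM, at least 40.5-fold higher), Mfap4 (76.8 CPM, at least 26.2-fold higher), Loxl2 (48.6 CPM, at least 16.6-fold higher), Lum (44.7 CPM, at least 15.3-fold higher) and Ecm2 (35.0 CPM, at least 11.96-fold higher). The 2 lower genes were Tgfbi, the periostin paralog, at 98.2 against 542 CPM (ratio 0.181, 0.145 to 0.224), and Spp1, osteopontin, at 97.2 against 988 CPM (ratio 0.0984, 0.0793 to 0.121). Efemp2, with a ratio of 5.98 (2.49 to 17.4), and Ltbp3, with 4.63 (2.57 to 8.93), completed the 4 lowest. Periostin and its paralog thus lay on opposite sides, Postn 83.8-fold higher in skeletal lineage-like nuclei and Tgfbi higher in macrophage-like nuclei. The fibrinogen genes Fga, Fgb and Fgg and the vitronectin gene Vtn, which encode plasma proteins of the clot made in the liver, had 0 UMIs in both populations.

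At day 1 post-fracture, free RNA was read from barcodes with fewer than 200 genes, which held 6848386 UMIs. Fn1, at 566 CPM (548 to 584), and Thbs1, at 385 CPM (370 to 400), were the highest of the 10 genes there, and Fbn1 (79.1 CPM), Tnc (54.3 CPM), Fbln2 (40.7 CPM), Sparc (36.9 CPM), Postn (14.3 CPM), Lox (9.64 CPM), Aspn (7.30 CPM) and Thbs2 (7.30 CPM) were lower. Skeletal lineage-like nuclei numbered 52, with a median of 510.5 UMIs, and were led by Cxcl5, Il1r1, Tgfbr3, Adam12 and Lhfp. Of the 21 skeletal lineage markers, 12 were above the other nuclei and Sp7, Alpl, Acan, Col2a1, Sox9 and Fgfr3 were at 0. Myofibre markers summed to 44447 CPM in the free RNA and 22539 CPM in these nuclei.

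Above the free RNA stood Fbln2 and Fbn1 of the scaffold genes and Sparc and Tnc of the matricellular genes. Fbln2 was at 367 CPM from 11 UMIs, 9.003-fold over the free RNA (4.44 to 16.4), and Fbn1 at 600.2 CPM from 18 UMIs, 7.58-fold over it (4.46 to 12.1). Sparc, with 6 UMIs, had a ratio of 5.42 (1.97 to 11.95), and Tnc, with 8 UMIs, a ratio of 4.91 (2.10 to 9.78). Thus 4 of the 10 genes had an interval above 1. Of the 779 genes tested, 27.3% did, but that set asked for 10 UMIs, counting those in the nuclei plus those the free RNA level predicts at their depth. Thbs1, Fn1, Fbn1 and Fbln2 passed it, 2 of the 4 being above the free RNA, and Tnc and Sparc did not pass. Fbn1 and Fbln2 passed through their UMIs in the nuclei, so the counts are descriptions only. Fn1, at 667 CPM (1.18, 0.719 to 1.82), and Thbs1, at 233 CPM (0.607, 0.244 to 1.25), were not distinguishable from the free RNA. Postn and Aspn had 1 UMI each and Thbs2 and Lox 0, so at this depth they could be neither placed above the free RNA nor called absent.

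The wider mitochondrial limit of 5%, which the methods give for the MTI library, left 391 skeletal lineage-like nuclei at day 1 in place of 52. These were led by Tnfaip6, Col3a1, Has1, Il1r1 and Col5a3. Here Postn was also above the free RNA, at 84.5 CPM from 16 UMIs with a ratio of 5.91 (3.25 to 10.1). That made 5 of the 10 genes above it, all among the 7 with enough UMIs, and 21.2% of the 6082 genes with enough UMIs. Postn, Sparc and Fbln2 had enough only through their UMIs in the nuclei, so these counts are descriptions only. Fbln2 (7.13, 5.24 to 9.55), Fbn1 (6.41, 5.10 to 7.98), Tnc (5.74, 4.29 to 7.57) and Sparc (4.15, 2.72 to 6.10) stayed above it with narrower intervals. Fn1 (0.971, 0.792 to 1.18) and Thbs1 (0.811, 0.615 to 1.05) stayed within counting error of it, at 549.6 and 312 CPM. When nuclei were assigned 1 by 1 from a marker score instead of by cluster, Fbn1 alone was above the free RNA (2.24, 1.45 to 3.32).

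Immune-like nuclei at day 1 did not stand above the free RNA for any of the 10 genes with the 0.5% limit, where 12.4% of 1847 genes did. Of the 10, 3 had enough UMIs to enter that share. The nuclei numbered 162, with a median of 333.5 UMIs, and were led by Nom1, Cep250, Stk24, Cct8 and Fkbp15. Of the 14 immune markers, 11 were above the other nuclei, as were 5 of the 21 skeletal lineage markers. Of the 10 macrophage markers, C1qa, C1qb, C1qc, Cd68 and Cd163 were at 0. In these 162 nuclei Fn1 was at 741 CPM, with a ratio of 1.31 (0.946 to 1.77), and Thbs1 at 448 CPM, with a ratio of 1.17 (0.759 to 1.71). With the 5% limit the immune-like nuclei numbered 627, and 6 of the 10 genes had enough UMIs. Above the free RNA were 2 of the 10 genes, as were 15.6% of 6968 genes. Those 2 were Fn1, at 1095 CPM from 251 UMIs (1.94, 1.697 to 2.20), and Thbs1, at 733 CPM from 168 UMIs (1.91, 1.62 to 2.23). Both were higher in a cluster of 359 nuclei led by 9930111J21Rik2, Gm46224, Myo1g, Mmp19 and Cd48, at 1430.2 and 942 CPM, than in the other immune-like cluster, at 513 and 370.2 CPM. Immune markers summed to 2601 CPM in the 627 nuclei, 1913 CPM in the 162 and 1505 CPM in the free RNA.

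**Figure D5:**
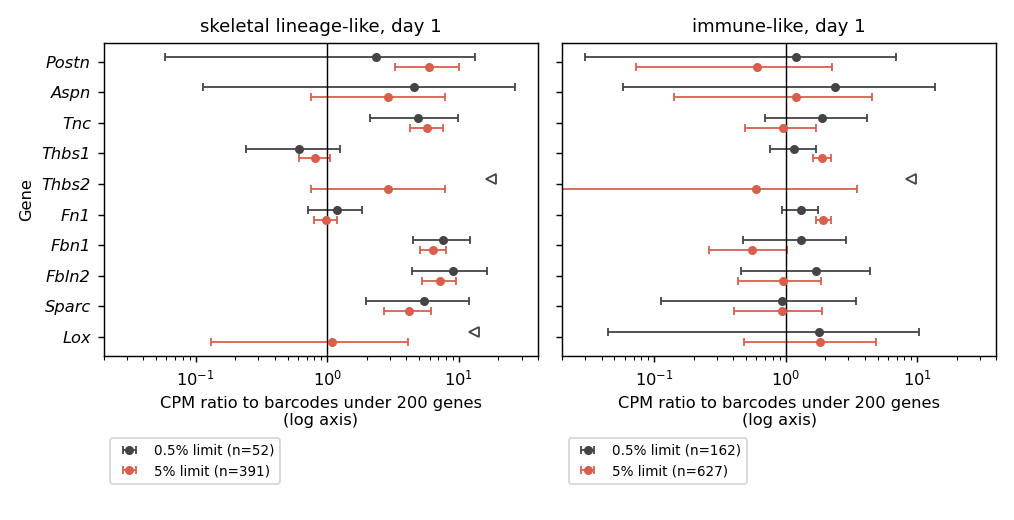
CPM ratio of each gene to barcodes under 200 genes at day 1 post-fracture on a log axis, in skeletal lineage-like and immune-like nuclei, with 95% counting intervals for the 0.5% and the 5% mitochondrial limits; open triangles mark the upper limit at 0 UMIs and the line marks a ratio of 1. Fbln2, Fbn1, Tnc and Sparc lie above 1 in skeletal lineage-like nuclei under both limits, and Fn1 and Thbs1 in immune-like nuclei under the 5% limit.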

How the data were processed

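Nuclei were extracted from tissue of 3 or 4 mice per library, sorted on a DNA dye and sequenced with 10x Genomics 3′ v3.1 chemistry. The authors counted reads, introns included, with Cell Ranger 7.0.1 per the file headers and deposited the unnormalized UMI counts as a matrix of genes by barcodes. The labels name a human reference, but all 32285 gene identifiers are mouse ones (mm10). Gene positions and lengths came from GENCODE and promoter windows from RefSeq.

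Nuclei with 200 to 5000 genes were kept, with mitochondrial limits of 0.5% at day 1 and 5% after MTI and ribosomal limits of 2.5% and 2%, as the methods give them. Each library was clustered on its own with Seurat 5.3.0 in R 4.3.3 on 2000 variable genes, without the 10 genes. Clusters were named from marker lists by the share of markers above the other nuclei, with thresholds set once the clusters had been seen, so populations may differ from those of the study. Scrublet marked 0.0185% of day 1 barcodes and 0.266% of MTI nuclei as doublets, too few to be useful at day 1, and doublets were kept.

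Counts were summed per population, and CPM received exact Poisson intervals, shares exact Clopper-Pearson intervals and ratios exact conditional binomial intervals (95%) in Python 3.11.15 with scipy 1.17.1. Genes entered a comparison with at least 10 UMIs. On simulated counts for the MTI comparison of skeletal lineage-like with macrophage-like nuclei, the intervals covered 98% of 200 changed genes and 96.8% of all 11778. Such coverage is built into exact intervals and says nothing about spread between mice or libraries. Related genes were named by rule, the 6 highest and 4 lowest ratios among those with at least 20 UMIs, ties at 0 UMIs ordered by UMIs. The most alike genes were the 3 with the highest correlation among those with at least 100 UMIs. The members and lists were chosen with earlier results of these data known. Alternatives changed the filters, the resolution, the genes clustered on, the assignment of nuclei and the free RNA limit. Other time points, and day 5 after a fracture alone, were not analysed here.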

Additional observations from a re-analysis of the deposited data

Results flagged for a closer look

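The barcodes removed by the filters carried the 10 genes as well. Those of the MTI library entered no comparison, and most of those at day 1 entered only the clustering with the 5% mitochondrial limit. From that clustering, only skeletal lineage-like and immune-like nuclei entered a comparison. In the MTI library the 10 genes summed to 5418 CPM over the 319 removed barcodes, against 2689 CPM over the filtered nuclei, and the skeletal lineage markers summed to 10373 CPM over them, against 5274 CPM. In the day 1 library they summed to 1427 CPM over the 3118 removed barcodes that had at least 200 genes, against 824 CPM over the filtered nuclei and 1200 CPM in the barcodes with fewer genes.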

How the results depend on the processing

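Without replicates and with few nuclei at day 1, the intervals cover counting error only, and the least abundant genes (Lox, Thbs2 and Aspn at day 1, and Postn with the 0.5% limit) could not be placed against the free RNA. The 10 genes were 2-fold higher in skeletal lineage-like than in macrophage-like nuclei in every alternative except doubled resolution, where 9 were. Between the skeletal clusters the count of 3 became 6 with doubled resolution, where the pair was picked anew and no share over all genes is given. Above free RNA in skeletal lineage-like nuclei at day 1, the count of 4 became 1 with nuclei assigned by marker score, and in immune-like nuclei the count of 0 became 2 with the 5% mitochondrial limit. The causes were not tested. With nuclei assigned by marker score, the day 1 ratio of Fn1 in skeletal lineage-like nuclei to free RNA turned from 1.18 to 0.639 (0.478 to 0.838). Of the ratios of single genes recomputed after MTI, 23 moved beyond the counting interval of the main value and 76 did not. Leaving out the 33 barcodes present in both libraries, an alternative chosen after seeing the data, gave counts of 10, 3, 4 and 0. Some alternatives gave no value because a population or a second skeletal cluster was not found, namely the exchanged mitochondrial limit, halved resolution and no regression for the skeletal clusters, a minimum of 500 genes for both day 1 comparisons, and doubled and halved resolution for immune-like nuclei at day 1. No paired analysis was possible because each condition had 1 library.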
